A study of Mus musculus with 9 samples.

Results

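Interferon signaling in the fracture callus of mice was described through 9 genes that receive and relay the signal, out of 22054 genes in the expression table. They were chosen by name as parts of one pathway. The choice set no limit on measured values but was made with earlier results of these data known. The chains of the type I interferon receptor are encoded by Ifnar1 and Ifnar2, and those of the interferon gamma receptor by Ifngr1 and Ifngr2. Jak1 and Tyk2 encode receptor-bound Janus kinases, Stat2 and Irf9 encode parts of the transcription factor ISGF3, and Socs1 encodes a feedback inhibitor of the kinases.

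When type I interferon joins IFNAR1 to IFNAR2, TYK2 and JAK1 phosphorylate STAT2, which enters the nucleus with IRF9 in ISGF3, a complex that binds interferon-stimulated response elements (ISREs). Interferon gamma acts through IFNGR1, IFNGR2, JAK1 and JAK2, and its target genes carry gamma-activated sites (GAS). Both signals reach most cell types of bone, where interferons are known to restrain osteoclast formation.

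RNA was sequenced from callus collected on day 7 after a femoral fracture in male C57BL/6J mice aged 7 weeks by the labels. The left femur of every mouse had been cut and fixed with a needle in the marrow cavity, so all groups share the injury and no uninjured bone was compared. One group received the STING inhibitor H-151, 750 nmol in 200 µl by daily intraperitoneal injection. A second received the STING agonist SR-717 at 30 mg/kg in the same volume, and the third an equal volume of PBS alone. Treatment lasted a week in every group by the labels and, per the paper, began on the day after surgery. Each group had 3 libraries, labelled as separate biological samples, so p-values measure the spread between these libraries. Whether animals were pooled is not given in the sources used here.

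The libraries held 16987398 to 23272480 expected counts. A pair of them stood apart. On the first principal component, with 46.6% of the variance, SR-717 replicate 1 lay at 101 and PBS replicate 1 at 38.8, while the other 7 lay between -28.8 and -4.03. Values are CPM, the share of a library's counts after TMM scaling, unless TPM is named. Summed chondrocyte markers were 255 CPM in SR-717 replicate 1 and 1605 in PBS replicate 1, against 4649 to 16695 in the other 7 libraries, and none of the 8 was at 0 in every library. In SR-717 replicate 1 all 8 macrophage, all 10 neutrophil and all 10 T and NK cell markers had their highest value of the 9 libraries. In bulk RNA, fewer cells of a type and less RNA per cell cannot be told apart.

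No member passed the test in any comparison. At an adjusted p under 0.05 the edgeR quasi-likelihood test called 0 of the 9 members between SR-717 and H-151, between SR-717 and PBS, and between H-151 and PBS, and DESeq2 likewise called none. By edgeR the share of all tested genes called this way was 0% in each comparison, while DESeq2 called 1 gene between SR-717 and H-151. At an unadjusted p under 0.05, again 0 of the 9 passed, against 1.03%, 0.689% and 0.646% of the genes tested in the same order. In all 9 genes the highest CPM was that of SR-717 replicate 1, which was the highest library for 26.7% of 14294 genes.

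**Figure D1:**
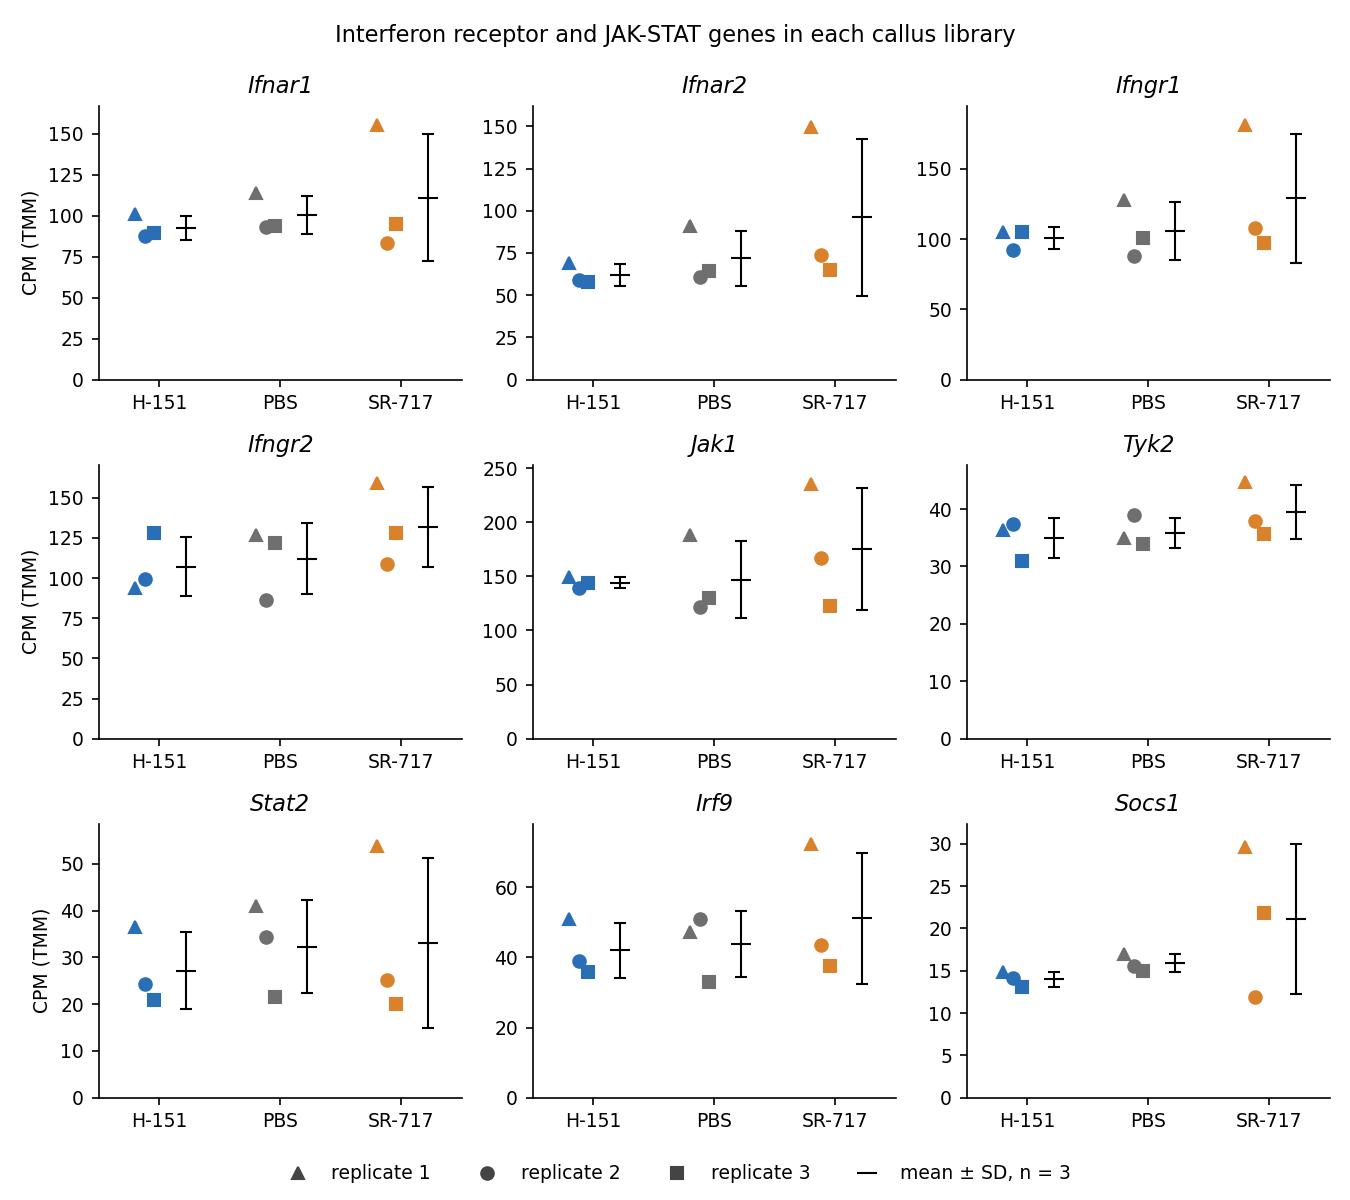
CPM of each member in each library, with marker shape for the replicate number, color for the group and the mean ± SD of 3 libraries beside the points (each vertical axis starts at 0). The SR-717 replicate 1 triangle is the highest point in all 9 panels, and in the Stat2 panel replicate 1 is highest and replicate 3 lowest in every group.

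Among the receptor chains, Ifnar2 had the widest range. It encodes the chain that binds type I interferon with high affinity. Its CPM was 69.3, 59.0 and 57.8 in H-151 replicates 1 to 3, 90.7, 60.9 and 64.3 in PBS, and 149.6, 74.0 and 64.8 in SR-717. SR-717 replicate 1 was the only library above 100 CPM, and PBS replicate 1 was the next. The groups overlapped in all 3 comparisons. The SR-717 mean was 96.1 ± 46.6 (SD, n = 3) against 62.0 ± 6.35 in H-151, a log2 fold change of 0.62 ± 0.33 (SE) with a 95% interval of -0.18 to 1.42 and an adjusted p of 0.996 by edgeR. Without SR-717 replicate 1 it was 0.15. Against PBS the log2 fold change was 0.42 ± 0.36 with all libraries and -0.05 without that library.

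Ifnar1 encodes the partner chain, to which TYK2 binds. Its CPM was 101, 87.4 and 89.5 in H-151, 114, 93.3 and 93.6 in PBS, and 155, 83.3 and 94.7 in SR-717. Outside SR-717 replicate 1 the 8 values lay between 83.3 and 114, with SR-717 replicate 2 the lowest. The spread of log2 CPM over those 8 libraries was 0.14 (SD), which ranked at the 15.9th percentile of 14294 genes. The SR-717 and H-151 groups overlapped, and their log2 fold change was 0.25 ± 0.25 (95% interval -0.35 to 0.86) with all libraries and -0.07 without SR-717 replicate 1.

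For Ifngr1, the ligand-binding chain of the interferon gamma receptor, CPM was 105, 92.2 and 105 in H-151, 128, 88.1 and 101 in PBS, and 181, 108 and 97.3 in SR-717. Replicate 1 of SR-717 and then of PBS were the highest, and the 3 groups overlapped. The log2 fold change of SR-717 against H-151 was 0.34 ± 0.25 and became 0.02 without SR-717 replicate 1.

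Ifngr2, the signal-transducing chain that carries JAK2, showed another order. Its CPM was 93.7, 99.2 and 128 in H-151, 127, 86.5 and 122 in PBS, and 159, 109 and 128 in SR-717. Here replicate 2 was the lowest library in PBS and in SR-717, and H-151 replicate 1 was the lowest of its group. The log2 fold change of SR-717 against H-151 was 0.30 ± 0.19 (95% interval -0.17 to 0.76) with all libraries and 0.15 without SR-717 replicate 1. SR-717 replicate 1 stood 1.37-fold above the median of the other 8 libraries in Ifngr2, against 2.32-fold in Ifnar2, 1.76-fold in Ifngr1 and 1.66-fold in Ifnar1.

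Of the 4 receptor genes, 3 are neighbors in the genome. Ifnar2, Il10rb, Ifnar1 and Ifngr2 lie on 1 strand of chr16:91372783-91565623 (GRCm38, the build also called mm10), a span of 193 kb that holds 5 protein-coding genes in GENCODE vM21, while Ifngr1 lies at chr10:19591949-19610229. The 5th gene, Gm21970, overlaps Ifnar2 and Il10rb, so reads there could be divided between overlapping genes. It had expected counts of 13, 17 and 16 in H-151 replicate 3 and SR-717 replicates 1 and 3 and 0 in the other 6 libraries. Il10rb encodes the shared chain of the interleukin-10 and interferon lambda receptors, and it is named after its values were seen. Its CPM was 134 in SR-717 replicate 1, 100.3 in PBS replicate 1 and 56.8 to 68.9 in the other 7 libraries.

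Jak1 encodes the kinase used by both interferon receptors and by many cytokine receptors. Its CPM was 149.7, 139 and 144 in H-151, 188, 122 and 129.5 in PBS, and 235, 167 and 123 in SR-717. The H-151 libraries lay close together, inside the range of the other groups. The H-151 and PBS means were 144 ± 5.27 and 147 ± 35.9 (SD, n = 3), and the log2 fold change was -0.02 ± 0.19 with a 95% interval of -0.47 to 0.43. SR-717 against H-151 gave 0.27 ± 0.24 with all libraries and -0.0034 without SR-717 replicate 1.

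Tyk2, which encodes the kinase bound to IFNAR1, was the steadiest member. Its CPM was 36.3, 37.4 and 30.9 in H-151, 35.0, 38.9 and 33.9 in PBS, and 44.8, 38.0 and 35.7 in SR-717. Its highest value was 1.45-fold its lowest, and its SD of log2 CPM over the 9 libraries, 0.15, ranked at the 13th percentile of 14294 genes, whose median was 0.31. The intervals were correspondingly narrow, from -0.19 to 0.53 for SR-717 against H-151, from -0.24 to 0.51 for SR-717 against PBS and from -0.37 to 0.28 for H-151 against PBS on the log2 scale. Replicate 3 was the lowest library of each group, as it was for 7.98% of 14294 genes.

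Stat2, the subunit that gives ISGF3 its transactivation domain, had the largest spread of the 9 members. Its CPM was 36.5, 24.4 and 20.8 in H-151, 41.1, 34.3 and 21.5 in PBS, and 53.9, 25.2 and 20.1 in SR-717. In each of the 3 groups replicate 1 was the highest and replicate 3 the lowest, an order found for 3.89% of 14294 genes. Replicate 1 was highest in each group for 5 members, Ifnar1, Ifnar2, Jak1, Stat2 and Socs1, and for 11.2% of all these genes. The groups overlapped, and the 3 replicate 3 libraries lay between 20.1 and 21.5. The SD of log2 CPM was 0.50 over the 9 libraries (73.5th percentile) and 0.40 without SR-717 replicate 1 (71.5th percentile).

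No group difference of Stat2 passed the test. The log2 fold change was 0.27 ± 0.42 for SR-717 against H-151, 0.03 ± 0.43 for SR-717 against PBS and -0.24 ± 0.30 for H-151 against PBS. Leaving out 1 library moved them to between -0.28 and 0.54, -0.51 and 0.29, and -0.51 and -0.03 in the same order, with the lowest value without SR-717 replicate 1 in the comparisons of SR-717 and without H-151 replicate 1 in that of H-151 and PBS. When libraries of equal number were blocked, the SEs were 0.18, 0.21 and 0.14 and the log2 fold changes 0.18, -0.05 and -0.24, with no adjusted p under 0.997. The labels do not say what a replicate number stands for. Summed neutrophil markers were 3590.0 to 14464 CPM in replicate 1 libraries, 2940.4 to 4547 in replicate 2 and 584 to 2510.4 in replicate 3. From replicate 1 to 2 they went from 4700.5 to 4547 CPM in H-151, 3590.0 to 2940.4 in PBS and 14464 to 3846 in SR-717. In the same order Stat2 went from 36.5 to 24.4, 41.1 to 34.3 and 53.9 to 25.2 CPM. Summed T and NK cell markers fell in the same order, at 33.2, 30.7 and 17.8 CPM in H-151 replicates 1 to 3. They were 32.7, 28.2 and 18.2 CPM in PBS and 78.0, 38.6 and 24.8 CPM in SR-717. Summed type I interferon targets and interferon gamma targets also fell from replicate 1 to 3 in each group. Macrophage markers did not, with 1034 CPM in H-151 replicate 2 and 1105 in replicate 3. The part of any of these lists in the Stat2 order was not tested.

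Irf9 encodes the DNA-binding partner of STAT2. Its CPM was 50.9, 39.1 and 35.9 in H-151, 47.4, 51.0 and 33.1 in PBS, and 72.5, 43.7 and 37.5 in SR-717. Replicate 3 was again the lowest of each group, and the groups overlapped. SR-717 against H-151 gave a log2 fold change of 0.28 ± 0.28 with all libraries and -0.06 without SR-717 replicate 1. Across the 9 libraries log2 CPM of Irf9 followed that of Stat2, with a Pearson r of 0.94 and a Spearman rho of 0.87. The r was 0.90 without SR-717 replicate 1 and 0.94 without SR-717 replicate 1 and PBS replicate 1. Both genes were read in the same 9 libraries, so differences between libraries that act on many genes enter both, and the values are given without a test.

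Socs1 encodes a protein that binds Janus kinases and blocks them. Its CPM was 14.9, 14.1 and 13.1 in H-151, 17.0, 15.6 and 15.0 in PBS, and 29.6, 11.9 and 21.8 in SR-717. SR-717 held both the highest and the lowest library. The H-151 values all lay below the PBS values, while the groups overlapped in both comparisons of SR-717. For every other member the groups overlapped in all 3 comparisons. That order, H-151 below PBS without overlap, occurred in 2.31% of the genes tested. The gap was small, with means of 14.0 ± 0.873 and 15.9 ± 1.03 (SD, n = 3), a log2 fold change of -0.18 ± 0.15 (95% interval -0.54 to 0.18) and an adjusted p of 1 by edgeR. SR-717 against H-151 gave 0.58 ± 0.32 with all libraries, 0.25 without SR-717 replicate 1 and 0.86 without SR-717 replicate 2, where the unadjusted edgeR value was 0.00738 and the adjusted p 0.983.

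Stat2 and Socs1 were also the members with an ISRE in their promoters. The ISRE core was searched as GAAA, any 2 bases and GAAA again, and the GAS as TTCNNNGAA, both on either strand, from 250 bases before to 50 after the RefSeq start of each gene (GRCm38.p6), and all 9 members matched a promoter. An ISRE was found in 2 of the 9, and in 3.44% of 32851 promoters. The 250 bases before each start are given 5′ to 3′ on the strand of the gene, because Stat2 had the widest spread among members and Socs1 the groups that did not overlap. Capitals mark the ISRE. The Stat2 sequence is chr10:128270248-128270497 on the plus strand, and the Socs1 sequence is chr16:10785537-10785786 on the minus strand. No GENCODE vM21 gene overlapped either of them.
Stat2: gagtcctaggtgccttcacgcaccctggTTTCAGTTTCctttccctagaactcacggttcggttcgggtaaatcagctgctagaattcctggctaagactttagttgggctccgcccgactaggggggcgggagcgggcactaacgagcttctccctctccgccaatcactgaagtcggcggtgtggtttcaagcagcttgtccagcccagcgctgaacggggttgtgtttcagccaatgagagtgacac
Socs1: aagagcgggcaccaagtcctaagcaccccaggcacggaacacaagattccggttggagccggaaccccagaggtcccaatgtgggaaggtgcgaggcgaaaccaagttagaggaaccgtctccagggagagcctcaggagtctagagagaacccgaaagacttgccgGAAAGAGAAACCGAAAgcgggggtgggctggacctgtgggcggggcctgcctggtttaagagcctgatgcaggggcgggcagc

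In Stat2 the element was read on the opposite strand and lay at -222 to -213, counting the start base as 0. In Socs1 there were a pair of matches that shared 4 bases, at -83 to -74 and at -77 to -68. A GAS was found in Ifnar2 and Ifnar1, against 8.3% of all promoters, and neither was within a gene as annotated in GENCODE vM21. These short stretches, with 10 bases on each side of the GAS in capitals, are given because both genes are chains of the same receptor. The Ifnar2 stretch is chr16:91372559-91372587 and the Ifnar1 stretch chr16:91485200-91485228, both on the plus strand, and the Ifnar1 match crossed the RefSeq start.
Ifnar2: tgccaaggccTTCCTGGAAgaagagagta
Ifnar1: ggcgggggcgTTCACGGAAggggcggggc

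A match of this kind describes letters only. For comparison, 11 of the 19 type I interferon target genes with a matched promoter held an ISRE and 3 a GAS, while of 12 interferon gamma target genes 6 held an ISRE and 6 a GAS.

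Levels of different members were compared per length, in TPM. By median TPM of the 9 libraries the order was Ifngr1 (86.1), Ifnar2 (80.8), Ifngr2 (57.6), Jak1 (53.8), Ifnar1 (47.2), Irf9 (31.6), Tyk2 (15.1), Socs1 (10.9) and Stat2 (10.5). Within libraries the order of some neighbors differed from that of the medians, since Ifngr2 was above Jak1 in 3 of 9 libraries and Socs1 above Stat2 in 2 of 9. Among 16301 genes these medians ran from the 90.5th percentile for Ifngr1 to the 51.5th for Stat2. Of the 8 neighbor pairs in this order, Irf9 and Tyk2 alone had ranges that did not overlap, 24.3 to 50.1 TPM against 11.3 to 16.9 TPM. All 5 receptor and Jak1 genes therefore lay above the Tyk2 range in every library, whereas Tyk2, Socs1 and Stat2 were not separated. By TPM, SR-717 replicate 1 was highest for 8 of the 9 members. The exception was Tyk2, at 16.9 TPM in PBS replicate 2 and 16.4 TPM in SR-717 replicate 1.

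**Figure D2:**
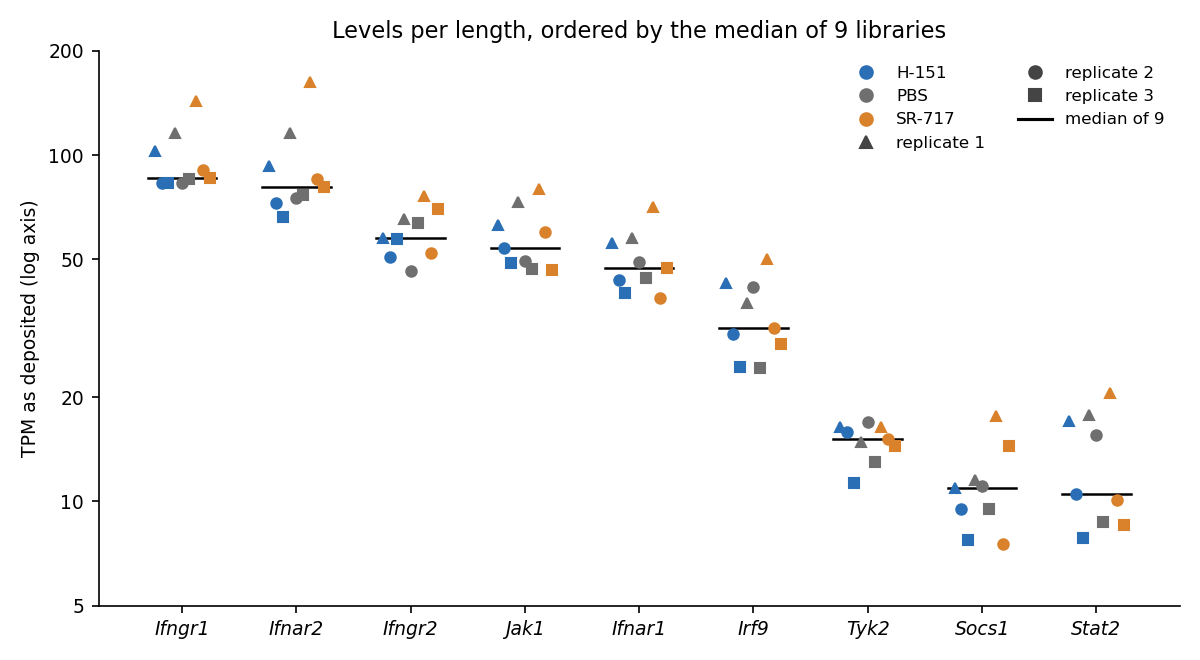
Deposited TPM of each member in each library on a log axis, ordered by the median of 9 libraries (black line), with color for the group and marker shape for the replicate number. Ifngr1 at 86.1 TPM and Ifnar2 at 80.8 TPM lead the order, and a gap without overlap lies only between Irf9 and Tyk2.

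By TPM the chains of each receptor kept an unequal level within libraries. The TPM ratio of Ifnar2 to Ifnar1 was above 1 in every library, with a median of 1.71. It ran from 1.53 in PBS replicate 2 to 2.31 in SR-717 replicate 1. By CPM Ifnar2 was below Ifnar1 in every library, at 60.9 against 93.3 in PBS replicate 2 and 149.6 against 155 in SR-717 replicate 1. The direction for this pair thus depends on the length used for each gene. In TPM, Ifngr1 exceeded Ifngr2 by 1.23 to 1.88 times. By CPM their order differed between libraries, with Ifngr1 at 105 against 93.7 in H-151 replicate 1 and at 97.3 against 128 in SR-717 replicate 3. In TPM, Jak1 exceeded Tyk2 by 2.93 to 4.93 times and Irf9 exceeded Stat2 by 2.09 to 3.34 times. The ratio of Socs3, a related inhibitor induced by interleukin-6 family cytokines, to Socs1 was 14.5 in SR-717 replicate 1 and 13.7 in PBS replicate 1, against 2.90 to 5.51 in the other 7.

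The level per length depends on which transcript the counts were assigned to. The length implied by expected count over TPM was computed after the data were seen, with a scale taken from genes that have 1 annotated transcript. For Ifnar2 it was 1435 to 1584 bases, with a median of 1512. That lies between annotated coding transcripts of 3047 bases, which encode 513 codons, and of 1099 bases, which encode 248 codons and lie beside a form of 2580 bases and 247 codons. Shorter Ifnar2 products are known to lack the intracellular part of the chain. The implied length of Ifnar2 therefore stood well under its longest form in all 9 libraries, and the gene ranked 5 by CPM and 2 by TPM. Ifngr2 was at 3665 to 3672 bases in 5 libraries and at 3305 to 3435 bases in the other 4, H-151 replicate 1, PBS replicate 3 and SR-717 replicates 1 and 3. For Ifngr1, Jak1 and Stat2 the range was under 1% of the median, at 0.624%, 0.268% and 0.276%.

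The question behind the SR-717 and H-151 comparison was how the callus differs when STING is activated or inhibited. The log2 fold change of SR-717 against H-151 was above 0 for 9 of 9 members, with a median of 0.28 and a range of 0.17 to 0.62. Over the 14151 genes tested, 53.4% were above 0 and the median was 0.02. Without SR-717 replicate 1, 5 of 9 members were above 0 and the median was 0.02. The 95% interval of every member included 0. Beside these counts, summed macrophage markers were 3227 CPM in SR-717 replicate 1 and 973 to 1795 CPM in the other 8 libraries. Summed T and NK cell markers were 78.0 CPM there and 17.8 to 38.6 CPM elsewhere, and the part of either list in the member values was not tested.

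Against PBS, SR-717 gave 9 of 9 members above 0, with a median of 0.24 and a range from 0.03 in Stat2 to 0.42 in Ifnar2, although Stat2 was at -0.04 with library totals alone and at -0.05 with the block. Of 14070 genes, 52.2% were above 0 and the median was 0.01. The count was 3 of 9, with a median of -0.04, without SR-717 replicate 1, and 9 of 9, with a median of 0.34, without PBS replicate 1. H-151 against PBS gave 9 of 9 members below 0, with a median of -0.07 and a range from -0.24 in Stat2 to -0.02 in Jak1, which was at 0.0042 with the block. Here 55.8% of 14085 genes were below 0 and the median was -0.02. Without PBS replicate 1 the members divided into 5 below and 4 above 0, with a median of -0.0022. The 3 comparisons share libraries, so their member counts are not separate evidence.

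**Figure D3:**
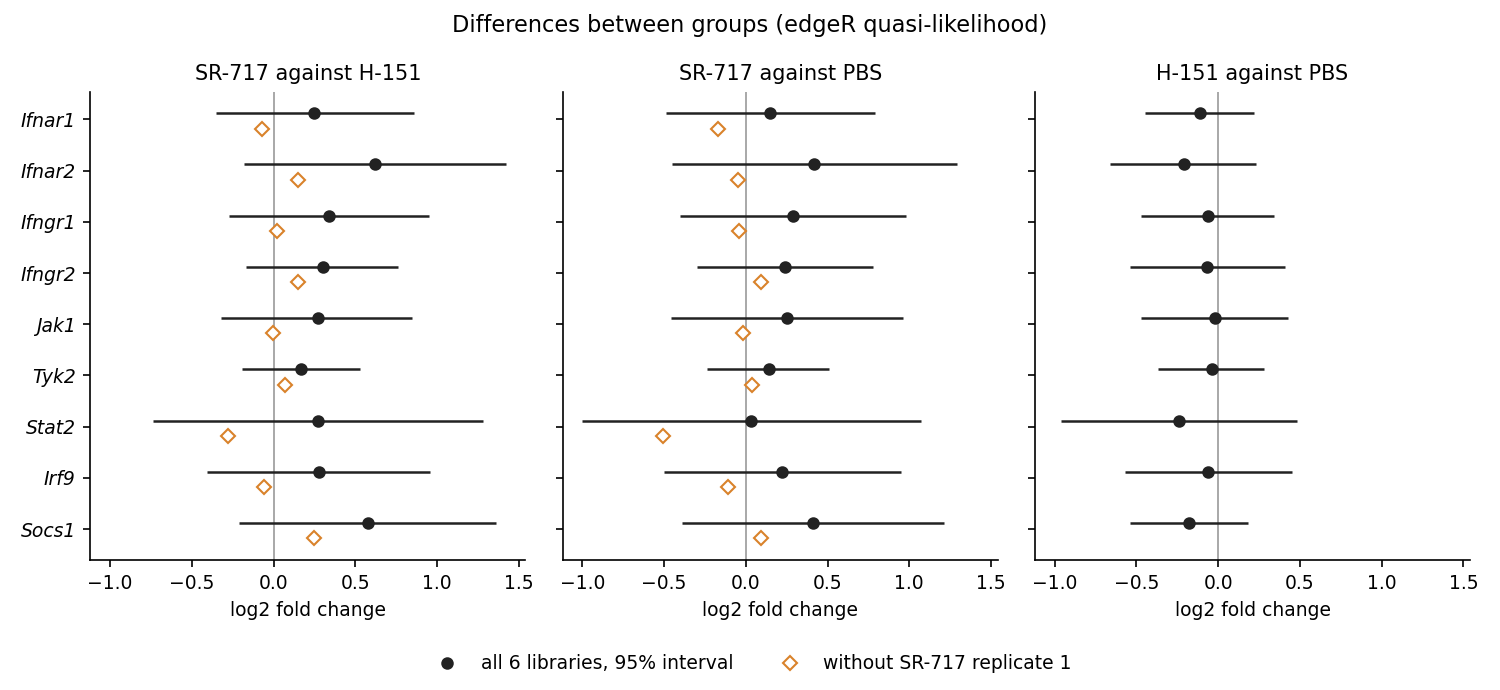
Log2 fold changes of the 9 members from edgeR in the 3 comparisons, with black points and 95% intervals for all 6 libraries and open diamonds for the value without SR-717 replicate 1. Every interval crosses 0, and the diamonds lie to the left of the points, on the other side of 0 for 4 members against H-151 and for 6 against PBS.

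At an unadjusted p under 0.05 and a fold change of 1.5, 0 of 9 members were called, against 0.756% of genes for SR-717 against H-151, 0.519% for SR-717 against PBS and 0.426% for H-151 against PBS. A block by replicate number took these counts over all genes from 73 to 443 for SR-717 against PBS and from 60 to 262 for H-151 against PBS. No member was among the genes called under the block, and none had an unadjusted p under 0.05.

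Jak2 and Socs3, which act beside the members, stood further above the other libraries in SR-717 replicate 1. Jak2, the kinase of the interferon gamma receptor, was at 175 CPM in that library and at 22.2 to 57.3 CPM in the other 8. Socs3 was at 390.1 CPM in SR-717 replicate 1, at 212 CPM in PBS replicate 1 and at 38.7 to 74.4 CPM in the other 7. For Jak2 and Socs3 the log2 fold changes of SR-717 against H-151 were 1.07 ± 0.78 and 1.51 ± 0.85, and -0.42 and -0.13 without SR-717 replicate 1. The adjusted p of both was 0.996 by edgeR, and their groups overlapped in every comparison.

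Interferon transcripts themselves were scarce. Of 21 interferon ligand genes in the table, 19 had 0 counts in every library, and a count of 0 allows up to 3 counts, or 0.127 to 0.175 CPM depending on the library, with counting error only. Ifnb1 and the listed Ifna genes were among these 19. Ifng, which encodes interferon gamma, had 22 counts in SR-717 replicate 1, 2 in each of the other SR-717 libraries, 2, 1 and 0 in H-151 and 0 in the 3 PBS libraries. Ifnz, an interferon zeta gene, had 7, 5 and 1 counts in H-151, 14, 5 and 14 in PBS and 3, 1 and 10 in SR-717.

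Downstream, no target gene passed at an adjusted p under 0.05. Of 23 type I interferon targets tested between SR-717 and H-151, 23 were above 0 with a median log2 fold change of 0.67, and 4 were above 0 with a median of -0.14 without SR-717 replicate 1. Ddx60, an antiviral helicase gene, was the one with an unadjusted p under 0.05 (log2 fold change 2.08 ± 0.78 and adjusted p = 0.996 by edgeR, unadjusted value 0.0347), and it stood at 1.10 ± 0.57 without that library. Its CPM was 2.94, 2.27 and 1.95 in H-151, 5.42, 3.04 and 1.41 in PBS and 20.4, 8.26 and 1.99 in SR-717. Both SR-717 replicates 1 and 2 were therefore above the H-151 libraries, while replicate 3 was within their range.

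Of 15 interferon gamma targets, 15 were above 0 with a median of 1.57, and 6 with a median of -0.05 without SR-717 replicate 1. Nos2, inducible nitric oxide synthase, was at 328 CPM in SR-717 replicate 1 and at 5.72 to 42.9 CPM elsewhere. Gbp5, a guanylate-binding protein gene, was at 152 CPM there and at 1.69 to 8.68 CPM elsewhere. By edgeR the adjusted p of both was 0.996 and the unadjusted values were 0.0343 and 0.0382. With these included, 3 of the 15 targets had an unadjusted p under 0.05, against 1.03% of the genes tested. Without SR-717 replicate 1 the count was 0 of 15.

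Between SR-717 and PBS, 18 of 23 type I targets and 15 of 15 gamma targets were above 0, with medians of 0.30 and 1.08, and 1 of 23 and 1 of 15, with medians of -0.51 and -0.40, without SR-717 replicate 1. Without PBS replicate 1 they were 23 of 23 and 15 of 15, with medians of 0.80 and 1.37. Between H-151 and PBS, 0 of 23 type I targets were above 0, with a median of -0.43, and 17 of 23, with a median of 0.10, without PBS replicate 1. For the gamma targets the counts were 1 of 15 (median -0.48) and 10 of 15 (median 0.01). The direction of both target lists thus changed without SR-717 replicate 1 in the first comparison and without PBS replicate 1 in the second.

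Other parts of the pathway held no call either. Of 19 other negative regulators 13 were above 0 between SR-717 and H-151, with a median of 0.20, and 6 without SR-717 replicate 1. The 5 interleukin-6 family receptors, which also use JAK1, had a median of -0.0014 with 2 of 5 above 0. The 5 other chains of the class II cytokine receptor family had 4 of 5 above 0 and a median of 0.53, and 1 of 5 without that library. No gene of these lists had an unadjusted p under 0.05 in any of the 3 comparisons.

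**Figure D4:**
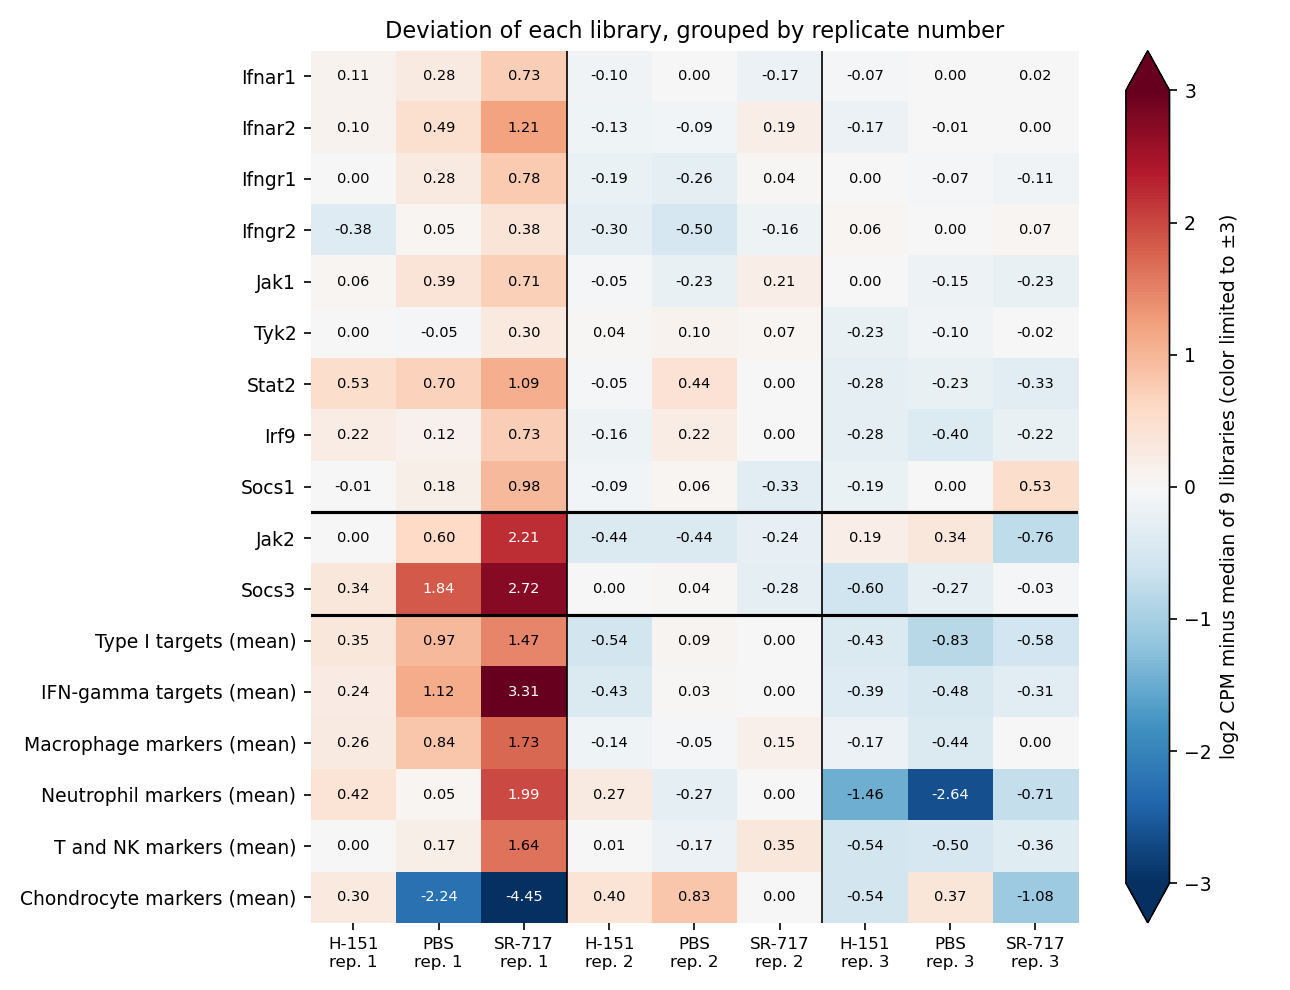
Log2 CPM of each gene, or mean log2 CPM of each list, minus its median over the 9 libraries, with columns grouped by replicate number (values are printed in the cells and color is limited at 3). In the SR-717 replicate 1 column the members lie between 0.30 and 1.21, Jak2 at 2.21 and Socs3 at 2.72, the interferon gamma targets at 3.31 and the chondrocyte markers at -4.45.

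The genes whose log2 CPM was most like each member over the 9 libraries were sought among 13509 genes. Ifnar2 was closest to Ikbkb (Pearson r = 0.994), Soat1 and Calhm6. Ifnar1 was closest to Il10 (r = 0.984), Gadd45b and Rhov. Ifngr1 was closest to Gna13 (r = 0.992), Atrnl1 and Ctsc, and Ifngr2 to Nae1 (r = 0.952), Cstb and Cd302. These rankings rest in part on 1 library, since 8 of the 27 genes found for the 9 members remained among the top 3 without SR-717 replicate 1.

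Among the kinases, Jak1 was closest to Dock11 (r = 0.991), Cd47 and Plek, and Tyk2 to Hk1 (r = 0.971), Nlrx1 and Tkt. Genes close to Stat2 included Dennd1c (r = 0.977) and Dhx58, a type I interferon target. Irf9 was closest to Dok2 (r = 0.983), Arhgap45 and Uba7, and Socs1 to Prrg2 (r = 0.945), Adprh and Plin3. Between the members themselves, r over the 36 pairs ran from 0.10 to 0.97 with a median of 0.71. It ran from -0.72 to 0.90 with a median of 0.31 without SR-717 replicate 1, so the members did not vary as 1 block in the other 8 libraries. All genes were read in the same 9 libraries, which differ in total counts, scaled in CPM, and in levels of cell type markers, and no test was made.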

How the data were processed

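RNA from 9 callus libraries was sequenced, and the authors deposited 1 table of expected counts (not normalized) and TPM (scaled for length, each library to a fixed total). The counting program and annotation are not given in the sources used here. The build in the submitters' processing notes is mm10, and per the labels the libraries were strand-specific. Groups were taken from the labels. The deposited expected counts were rounded (3168 genes had a value that was not whole). The design had assumed counts. Each pair of groups was compared on its 6 libraries by the quasi-likelihood test of edgeR 4.0.16 under R 4.3.3, with TMM scaling, no covariates and filterByExpr at a minimum count of 10 and total of 15, with Benjamini-Hochberg adjustment over all tested genes. All 9 members passed the filter. CPM used TMM factors over the 9 libraries, and log2 CPM a prior count of 2. DESeq2 1.42.0, other scalings and filters, a fit of all 9 libraries, a replicate block and leaving out each library were alternatives.

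The members and lists were chosen with earlier results of these data known. The text names the 9 members, Jak2 and Socs3, the 3 genes with the highest Pearson r to each member (mean of at least 1 CPM), detected interferon ligands, and in each list and comparison the genes at an adjusted p under 0.05, or otherwise up to 2 with the smallest p under 0.05. Some genes that this rule selects are not reported here. Il10rb and Gm21970 are outside this rule and were chosen after their values were seen. Besides the lists in the text, the markers included osteoblast, osteoclast, B lineage, erythroid, endothelial, skeletal muscle, keratinocyte and adipocyte genes. None of these was highest in SR-717 replicate 1 except 1 keratinocyte gene, and no marker was at 0 in every library. Deviations from the group means of libraries with the same number correlated at 0.65, 0.34 and 0.14 for SR-717 and PBS. The values were 0.30, 0.49 and 0.50 for H-151 and PBS, and 0.34, 0.06 and 0.08 for SR-717 and H-151. The labels give no pairing. The main tests paired no libraries, and the replicate block was an alternative only. On simulated data edgeR recovered 139, 79 and 160 of 200 genes changed 4-fold and 0, 0 and 4 of 200 changed 2-fold at an adjusted p under 0.05, for SR-717 against H-151, SR-717 against PBS and H-151 against PBS. No library pair was a duplicate, since the smallest chi-square per gene over 36 pairs was 25.5.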

Additional observations from a re-analysis of the deposited data

How the results depend on the processing

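No member was called at an adjusted p under 0.05 under any alternative, and of 189 member fold changes under alternatives other than leaving out a library, 186 kept their direction. The exceptions were Stat2 for SR-717 against PBS (0.03, and -0.04 with library totals alone or -0.05 with the replicate block) and Jak1 for H-151 against PBS (-0.02, and 0.0042 with the block). In data simulated with 3 libraries per group and the depths and gene-by-gene spread of these libraries, 2-fold changes were mostly undetected. What limited detection was not tested.

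Genes at an unadjusted p under 0.05 and a fold change of 1.5 numbered 107 for SR-717 against H-151, with 209 by DESeq2, 223 without a filter, 61 at a mean count of at least 50 and 171 with all 9 libraries in 1 fit. They numbered 73 for SR-717 against PBS, with 138, 194, 37 and 176 in the same order and 443 with the replicate block. They numbered 60 for H-151 against PBS, with 127 without a filter, 28 at a mean count of at least 50 and 262 with the replicate block. DESeq2 gave 1 gene at an adjusted p under 0.05 for SR-717 against H-151, where edgeR gave 0. For SR-717 against H-151 the replicate block gave 143 genes. Except where stated in the report, the block changed no call of a member. The causes were not tested.

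Leaving out 1 library gave 64 to 661 genes for SR-717 against H-151 (64 without H-151 replicate 2, 384 without SR-717 replicate 2, 661 without SR-717 replicate 3), 95 to 319 for SR-717 against PBS (118 without PBS replicate 1, 259 without PBS replicate 2, 319 without SR-717 replicate 3) and 43 to 698 for H-151 against PBS (99 without H-151 replicate 3, and 115, 698 and 153 without PBS replicates 1, 2 and 3). At an unadjusted p under 0.05 by edgeR, Socs1 passed without SR-717 replicate 2 against H-151 (0.00738, adjusted p = 0.983) and against PBS (0.0272, adjusted p = 1), and Ifnar2 without SR-717 replicate 3 against H-151 (0.0394, adjusted p = 0.694). Of 162 member fold changes, 22 changed sign. For SR-717 against H-151 the log2 ranges of those members were -0.07 to 0.42 for Ifnar1, -0.0034 to 0.47 for Jak1, -0.28 to 0.54 for Stat2 and -0.06 to 0.46 for Irf9. For SR-717 against PBS they were -0.17 to 0.32 for Ifnar1, -0.05 to 0.63 for Ifnar2, -0.04 to 0.45 for Ifngr1, -0.02 to 0.47 for Jak1, -0.51 to 0.29 for Stat2 and -0.11 to 0.40 for Irf9. For H-151 against PBS they were -0.17 to 0.11 for Ifngr1, -0.21 to 0.05 for Ifngr2, -0.13 to 0.21 for Jak1, -0.10 to 0.04 for Tyk2 and -0.23 to 0.07 for Irf9.

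Ifnar2 ranked 5 by CPM and 2 by TPM. A GAS was left in 1 member when only the 250 bases before the start were searched. Of 27 most alike genes, 2 remained by Spearman rho and 8 without SR-717 replicate 1.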
